A study of Mus musculus with 12 samples.

Results

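The genes examined here are the 7 haem synthesis enzymes Alas2, Alad, Uros, Urod, Cpox, Ppox and Fech, taken as every row of the deposited peak table whose gene name is one of these symbols. They hold 189 of the 106382 peaks and are 7 of the 12102 gene names in that table. Argonaute (Ago) HITS-CLIP, which sequences RNA crosslinked to the microRNA effector protein Ago, was done on fetal liver cells of C57BL/6J mouse embryos. The 12 libraries form 4 groups of 3: wild type (WT) with Ago antibody, miR-144/451 knockout (KO) with Ago antibody, WT with control IgG, and KO with control IgG. Libraries are named by group and by the number in their title. The series text names 3 livers of each genotype. How the IgG libraries relate to the Ago libraries is not stated there, and where libraries share material p-values measure a spread that may be technical. Whole fetal liver holds erythroid cells, hepatocytes and other blood cells, and the knockout removes both microRNAs of the locus at once.

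Haem synthesis starts in the mitochondrion, where Alas2, the erythroid form of aminolaevulinate synthase, joins glycine to succinyl-CoA. Alad, Uros and Urod carry the intermediates through the cytosol, and Cpox, Ppox and Fech complete the pathway back in the mitochondrion, where Fech inserts iron. Fetal liver is the main site of red cell formation in the mouse embryo, and miR-144 and miR-451 are made from one transcript that is abundant in erythroid cells.

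The deposited table scores each peak for seed matches to the microRNAs that the knockout removes. Their mature sequences are shown because every seed code cited for a peak refers to bases of these strands. Sequences are from RefSeq (GRCm38.p6), written 5′ to 3′, and capitals mark the seed, bases 2 to 8.
miR-451a: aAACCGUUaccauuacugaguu
miR-144-3p: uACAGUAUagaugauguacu
miR-144-5p: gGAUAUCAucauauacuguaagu
The 3 seeds differ from each other, and their full 7-base matches in DNA letters are AACGGTT for miR-451a, ATACTGT for miR-144-3p and TGATATC for miR-144-5p. In the authors' scores, 11 is a 6-mer match, 12 a 7-mer-A1, 13 a 7-mer-m8 and 14 an 8-mer. A score of 8 is an offset 6-mer, and a score of 2 to 7 gives the seed position of a single mismatch. Among the 189 peaks, 79 (41.8%) had any such code for a microRNA of the locus, against 40.9% of all peaks with a gene. Only 8 (4.23%) had a 6-mer or longer, against 5.24%. The others had codes of a single mismatch or an offset match. A peak can have codes for several of the microRNAs, and 57 had one for miR-144-3p, 20 for miR-451a and 22 for miR-144-5p.

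The Ago libraries held 147969 to 452157 reads in peaks and the IgG libraries 24622 to 42916. The 7 genes took 0.547% ± 0.0483 (SD, n = 3) of the reads in WT Ago libraries and 0.503% ± 0.00975 in KO Ago libraries. Of 16 erythroid marker genes, 10 had a peak; Hba-a1, Hba-a2, Hbb-bt, Hbb-bs, Hbb-y and Epb42 had none under that name. The erythroid markers took 1.10% to 1.34% of reads in WT Ago and 0.733% to 0.959% in KO Ago libraries, which do not overlap. In the IgG libraries they took 0.748% to 1.07% in WT and 0.774% to 0.967% in KO, which overlap. All 13 hepatocyte markers had a peak and took 0.630% to 1.88% in WT Ago and 1.17% to 2.31% in KO Ago libraries, which overlap. Macrophage markers (5 of 6 with a peak, Cd68 at 0) took at most 0.0350% of reads in any Ago library, megakaryocyte markers (2 of 5; Itga2b, Gp1ba and Gp9 at 0) at most 0.00608%, and granulocyte markers (7 of 7) at most 0.189%. The part of these shifts in the results was not tested. In bulk liver, fewer erythroid cells and less RNA per cell cannot be told apart, and Ago reads depend on both the amount of an mRNA and its Ago occupancy.

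The first comparison asked how Ago reads over the whole of each gene differed without the locus. Reads of all peaks of a gene were summed and tested with the edgeR quasi-likelihood test over 4441 genes, and levels are CPM, the reads scaled to a common depth by TMM. Among all tested genes 5.29% were called lower in KO and 0.653% higher, at an adjusted p under 0.05. Of the 7 enzymes, Ppox and Alad were lower, none was higher and 5 did not pass. Their median log2 change was -0.29, against 0.03 over all tested genes. The 10 erythroid markers tested had a median of -0.49 with 2 lower, and the 13 hepatocyte markers one of 0.57 with none called; their part in the result was not tested.

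Ppox, protoporphyrinogen oxidase, makes the ring that receives iron. It had 628, 536 and 493 CPM in WT Ago libraries 1, 9 and 10. The KO Ago libraries 3, 12 and 13 had 263, 157 and 212 CPM, so every KO library lay below every WT library. The means were 552 ± 69.3 (SD, n = 3) and 211 ± 53.2, a 2.71-fold difference (log2 change -1.44 ± 0.23 SE, adjusted p = 0.0021 by the edgeR quasi-likelihood test). With the gene's peak of most Ago reads left out, the log2 change was -1.16 (edgeR adjusted p = 0.0129).

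Alad, aminolaevulinate dehydratase, makes the first pyrrole of the pathway. The 3 WT levels were 997, 651 and 771 CPM. The KO levels were 519, 250.2 and 366 CPM, all below WT. Its mean fell from 806 ± 176 to 378 ± 135 (log2 change -1.12 ± 0.26 SE, adjusted p = 0.0207 by the edgeR quasi-likelihood test). Leaving out WT Ago library 1 (edgeR adjusted p = 0.0746) or either KO Ago library 12 (0.0855) or 13 (0.0687) ended this call.

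The other 5 enzymes did not pass the test. Alas2 had 2041, 1959 and 1457 CPM in WT, against 1506, 1568 and 1385 in KO, with a log2 change of -0.29 ± 0.18 SE (edgeR adjusted p = 0.345). Urod, uroporphyrinogen decarboxylase, had 940.0, 559.8 and 571 CPM in WT and 585, 482 and 558 in KO (log2 change -0.36 ± 0.22 SE, edgeR adjusted p = 0.364). Both sets of values overlap between genotypes, and in Urod it was WT library 1 that stood above the rest. Uros, uroporphyrinogen III synthase, had 244, 242 and 199.9 CPM in WT and 197, 194 and 183 in KO, which do not overlap although the change was small (log2 change -0.26 ± 0.22 SE, edgeR adjusted p = 0.503). Such a complete order with KO below WT was found for 15.4% of all tested genes. Cpox, coproporphyrinogen oxidase, had 2233, 2434 and 2428 CPM in WT and 2573, 2592 and 2838 in KO (log2 change 0.17, 95% interval -0.15 to 0.50). Its KO libraries all lay above WT, an order found for 11.6% of tested genes. Fech, ferrochelatase, had 1397, 1447 and 1228 CPM in WT and 1586, 1303 and 1529 in KO, which overlap (log2 change 0.11, 95% interval -0.25 to 0.47). The intervals of Cpox and Fech hold changes of either sign.

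**Figure D1:**
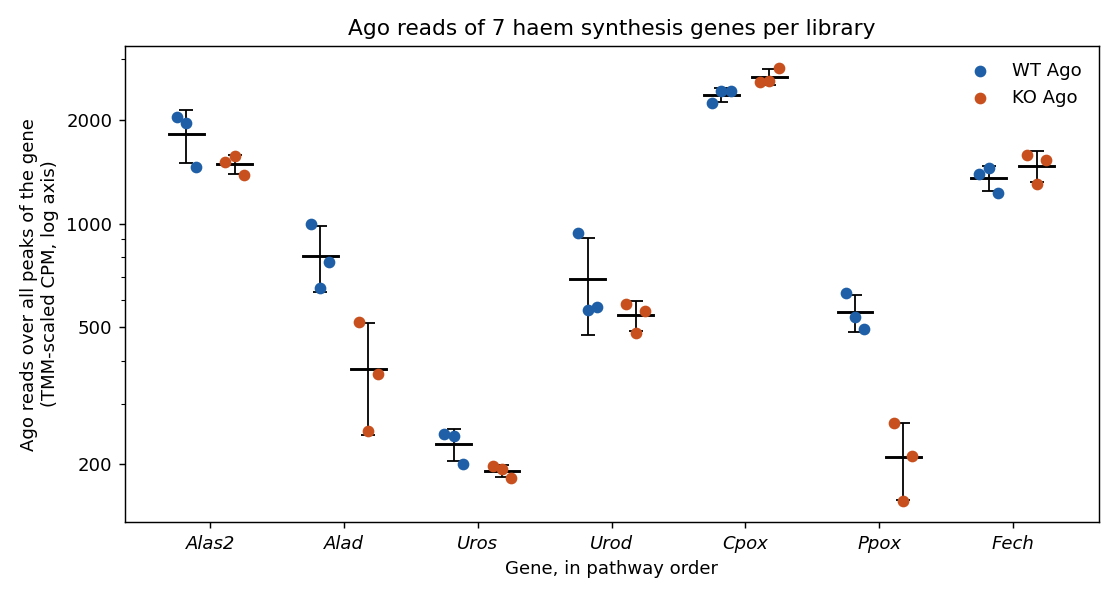
Ago reads summed over all peaks of each of the 7 genes (TMM-scaled CPM, log axis), with each library as a point, blue for WT Ago and orange for KO Ago; bars are the mean and SD of 3 libraries. Alad and Ppox are the genes that passed the test, with KO means of 378 and 211 CPM against WT means of 806 and 552.

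The wider pathway was a list of 40 genes of haem transport, degradation, iron-sulphur assembly and related steps. Of these, 36 had a peak and 27 were tested, 2 were lower, none was higher, and the median log2 change was -0.10. Abcg2, a transporter that exports porphyrins, went from 609 ± 101 to 281 ± 41.8 CPM (log2 change -1.12 ± 0.21 SE, edgeR adjusted p = 0.00593). Slc25a39, a mitochondrial carrier, went from 372 ± 54.5 to 197 ± 56.9 CPM (log2 change -0.86 ± 0.24 SE, edgeR adjusted p = 0.0456). These 2 of 27 stand beside the 5.29% called lower among all genes.

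The next comparison asked which peaks within the enzymes differed between genotypes. The edgeR quasi-likelihood test per peak covered 2425 peaks with enough reads, of which 17.6% were lower and 1.4% higher in KO. Of the 189 member peaks 40 were tested, 12 of Alas2, 2 of Alad, 3 of Urod, 18 of Cpox, 1 of Ppox, 4 of Fech and none of Uros. The other 149 had too few reads for the filter. Among the 40, 5 were lower and 1 was higher, and their median log2 change was -0.21 against 0.09 over all tested peaks. A peak with few KO reads could pass the read filter through its WT reads, and the reverse, so these counts are given as a description. All 5 lower peaks carried a seed code of the locus: 5 of the 23 tested member peaks with a code (21.7%) and none of the 17 without one. Over all tested peaks the shares were 29.0% with a code and 6.28% without. Peak levels below are CPM on the reads of the tested peaks.

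In Alas2 a single coding peak at chrX:150557186-150557208 was far from the other tested peaks of the gene. It had 730.3, 415 and 427 CPM in WT, against 59.4, 19.0 and 38.0 with Ago antibody in KO, from 69 and 4 reads. The log2 change was -3.76 ± 0.54 SE (edgeR adjusted p = 0.000149). Its code was a mismatch at position 7 of miR-451a. Relative to the joint change of all tested Alas2 peaks, itself included, the peak was lower as well (log2 difference -3.29, adjusted p = 7.50e-05 by edgeR's diffSpliceDGE). In that test 11.6% of 1398 peaks were called in either direction. The remaining 11 tested Alas2 peaks did not pass, and their log2 changes ran from -1.26 to 0.32. Among them, the coding peaks starting at chrX:150560876, chrX:150563806 and chrX:150565009 each passed as lower with 1 library left out (log2 change -1.42, -1.20 and -1.55). In 5 of the 32 Alas2 peaks (15.6%) every KO library lay below every WT library, against 12.3% of all peaks with a gene. The peak of most reads, in the 3′UTR at chrX:150570566-150570598, had 609, 1293 and 756 CPM in WT and 772, 1213 and 1293 in KO, which overlap.

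In Ppox the coding peak at chr1:171277123-171277199 had 657, 718 and 625 CPM in WT, against 89.1, 94.8 and 152 with Ago antibody in KO. It fell by 2.61 on the log2 scale (SE 0.38, edgeR adjusted p = 0.000175) and carried a mismatch at position 6 of miR-144-3p. It was the only Ppox peak with enough reads to test. In 6 of the 16 Ppox peaks every KO library lay below every WT library, against 12.3% of all peaks with a gene. All 6 were among the 11 Ppox peaks with at least 15 Ago reads, where the share of all peaks with a gene was 17.1%. The centres of these 6 peaks lie 3269.5 to 4032 nt from the gene start, and all 6 carried a code. Among them lies the uncoded peak at chr1:171277286-171277308, with 14 WT and 6 KO reads, whose libraries overlap between genotypes. The coding peak at chr1:171277694-171277709 had 46 WT and 3 KO reads and a mismatch at position 7 of miR-144-3p. In the authors' deposited table this peak had a log2 change of -4.09 and a false discovery rate of 0.000135. The median of that table over 6651 peaks was -0.65 and 35.7% of its peaks were lower, whereas the median of the fit here was 0.09, and values of the 2 are not to be compared directly. The coding peak at chr1:171277575-171277596 had 36 and 3 reads, and the one at chr1:171277479-171277513 had 51 and 9. A pair of coding peaks nearer the gene start, named after their values were seen and too shallow to test, at chr1:171279501-171279553 and chr1:171279874-171279922 had 13 WT and 13 KO reads, and 16 WT and 13 KO reads. The latter carried codes of both miR-451a and miR-144-3p.

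In Alad the coding peak at chr4:62510127-62510158 had 1363, 527 and 657 CPM in WT, against 356, 56.9 and 190.2 in KO. It fell by 2.16 on the log2 scale (SE 0.53, edgeR adjusted p = 0.00727) and carried mismatches at position 6 of miR-144-3p and position 4 of miR-144-5p. The other tested Alad peak was an intronic one at chr4:62516615-62516668. Relative to the joint change of both, the coding peak did not pass (log2 difference -0.49, diffSpliceDGE adjusted p = 0.730), a test that rests on 2 peaks. The intronic peak had 463, 415 and 362 CPM in WT and 267, 190 and 152 in KO, without overlap (log2 change -1.02 ± 0.37 SE, edgeR adjusted p = 0.0724). In 12 of the 19 Alad peaks (63.2%) every KO library lay below every WT library, against 12.3% of all peaks with a gene. With at least 15 Ago reads this held for 11 of 16 Alad peaks (68.8%), against 17.1%. The sum over the Alad gene had the same order, so its peaks are not independent. One of the 12, the coding peak at chr4:62511563-62511603, had 29 WT and 2 KO reads and no seed code of the locus. The coding peak nearest the start, at chr4:62514129-62514176, had 25 and 22 reads.

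Urod had 1 called peak, in coding sequence at chr4:116993393-116993422, with 511, 303 and 427 CPM in WT, against 208, 189.6 and 76.1 in KO. It fell by 1.26 on the log2 scale (SE 0.41, edgeR adjusted p = 0.0419), a call that was lost in 9 of 11 alternative settings. A 5′UTR peak starting at chr4:116993282 was tested and did not pass. It had 15, 21 and 14 WT reads and 4, 14 and 8 KO reads, not scaled for depth. A pair of coding peaks too shallow for the filter had few KO reads. The one at chr4:116992858-116992882 had 15, 10 and 8 WT reads and 1, 0 and 0 KO reads, a ratio of 27.7 with an exact 95% counting interval of 4.64 to 1128, and a mismatch at position 3 of miR-451a. The one at chr4:116992693-116992717 had 33 WT and 5 KO reads and a mismatch at position 6 of miR-451a. Between them in the gene, the coding peak at chr4:116992826-116992847 had 22 and 12 reads and no code. Intervals of this kind cover counting error only. Urod also held 3 of the 8 member peaks with a 6-mer or longer, all for miR-144-3p. The 5′UTR peak at chr4:116994339-116994364, a 6-mer, had 633, 239 and 230 CPM in WT and 475, 246 and 304 in KO, which overlap (log2 change -0.12 ± 0.45 SE, edgeR adjusted p = 0.890). The coding 7-mer-m8 at chr4:116992441-116992481 had 6 WT reads and 1 KO read, and the coding 6-mer at chr4:116991167-116991202 had 7 and 4.

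**Figure D2:**
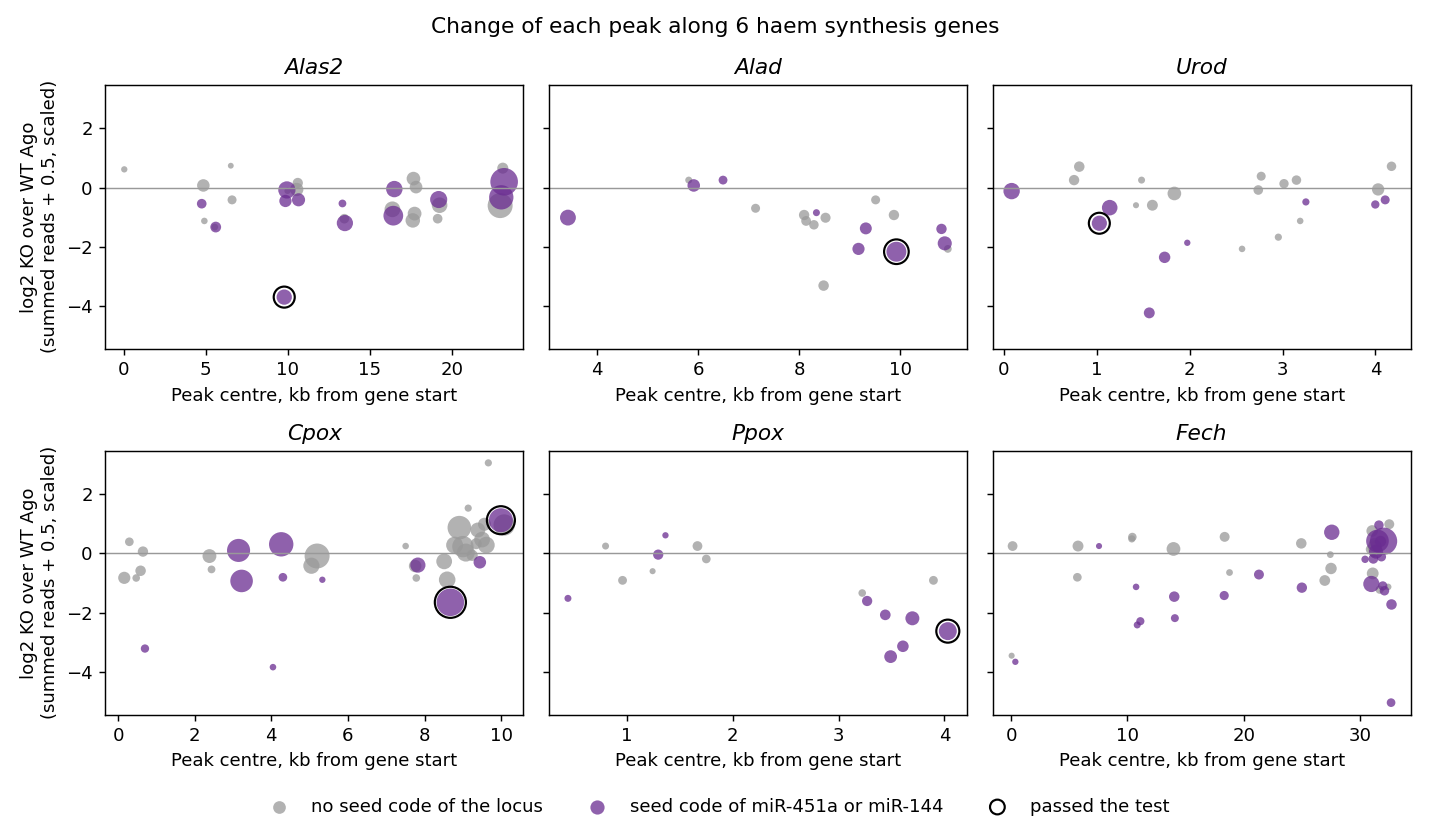
Each peak of 6 genes by its distance from the gene start (kb) and by the log2 ratio of summed KO over summed WT Ago reads, with 0.5 added and scaled for depth; point area grows with Ago reads, purple marks a seed code of the locus, and rings mark peaks that passed the edgeR test. In Ppox the 6 peaks whose KO libraries all lie below WT sit at 3269.5 to 4032 nt. In Alas2 the ringed peak (log2 change -3.76 in the fit) is the only one that passed.

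Cpox was the one enzyme with called peaks in both directions, and both lay in the 3′UTR. The peak at chr16:58678843-58678919 had 1022, 1548 and 1972 CPM in WT, against 416, 436 and 609 in KO, a fall of 3.13-fold (log2 change -1.65 ± 0.34 SE, edgeR adjusted p = 0.00202). It carried a 6-mer of miR-144-3p and a mismatch at position 7 of miR-451a, and was the only tested member peak with a 6-mer besides the one in the 5′UTR of Urod. The peak at chr16:58680177-58680222 had 292, 607 and 559 CPM in WT and 980.3, 1270.0 and 875 in KO, a rise of 2.15-fold (log2 change 1.10 ± 0.33 SE, edgeR adjusted p = 0.0289). Relative to the joint change of all tested Cpox peaks both kept their direction and passed (diffSpliceDGE log2 differences -1.68 and 1.07, adjusted p = 0.000462 and 0.0369). The rise alone is sensitive to the libraries: without WT Ago library 1 the log2 change was 0.71 (edgeR adjusted p = 0.304), without KO Ago library 12 it was 0.95 (0.0991), and DESeq2 gave 1.10 (0.0652). In 5 of the 17 Cpox 3′UTR peaks (29.4%) every KO library lay above every WT library, against 5.93% of all 3′UTR peaks. These Cpox peaks were deeper, with a median of 87 Ago reads against 11. With at least 15 Ago reads, 4 of 30 Cpox peaks of any class had this order (13.3%), against 6.09% of all peaks with a gene. The sum over the Cpox gene had the same order, so its peaks are not independent. The rising peak had 32 reads in the 6 IgG libraries and the falling peak 11. Cpox also held a 7-mer-m8 of miR-144-5p at chr16:58679630-58679669, with 122, 271 and 197 CPM in WT and 119, 190 and 190 in KO, which overlap. Most of the tested Cpox peaks that did not pass are not given singly. Of these, the 3′UTR peaks starting at chr16:58680267 and chr16:58679102 passed as higher in 3 and 1 of 12 alternatives. The coding peak starting at chr16:58673419 passed as lower in 2 of 12. The authors' deposited table listed a single Cpox peak, in coding sequence at chr16:58673419-58673446, with a log2 change of -1.52 and a false discovery rate of 0.00595. The fit here gave it a log2 change of -0.99 ± 0.36 SE (edgeR adjusted p = 0.0695). The 2 tables cover different sets of peaks, with medians of -0.65 and 0.09. The values -1.52 and -0.99 are therefore not to be compared directly, and the cause of their gap was not tested.

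None of the 4 tested Fech peaks passed. The 3′UTR peak of most reads, at chr18:64457074-64457110, had 901, 958 and 625 CPM in WT, against 1485, 1099 and 837 in KO, which overlap (log2 change 0.45 ± 0.32 SE, edgeR adjusted p = 0.428). The 3′UTR peak at chr18:64457601-64457635 had 559.9, 638 and 526 CPM in WT and 861, 777 and 723 in KO, without overlap (log2 change 0.44 ± 0.29 SE, edgeR adjusted p = 0.389). The authors' deposited table listed both, with log2 changes of -0.02 and -0.01. Both values lie above the median of that table, -0.65. The Fech coding peak at chr18:64458122-64458162 had 292, 479 and 559 CPM in WT and 238, 246 and 114 in KO (log2 change -1.06 ± 0.41 SE, edgeR adjusted p = 0.0891). Relative to the joint change of all tested Fech peaks it was lower (diffSpliceDGE log2 difference -1.34, adjusted p = 0.0256). The coding peak at chr18:64461528-64461559 had 268, 207 and 230.1 CPM in WT and 416, 322 and 457 in KO, without overlap (log2 change 0.73 ± 0.36 SE, edgeR adjusted p = 0.207).

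No Uros peak had enough reads to test. Its peak of most reads, in the 3′UTR at chr7:133686970-133687011, had 146, 271 and 131 CPM in WT, against 119, 152 and 228 in KO. The coding peak at chr7:133687057-133687093 had 195, 207 and 164 CPM in WT and 178, 133 and 190.2 in KO. The 3′UTR peak at chr7:133686396-133686452 had 20 WT and 21 KO reads. All 3 overlap between genotypes.

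The 6-mer codes of Fech lay in shallow peaks. A pair of peaks classed upstream by the authors lies just beyond the 3′ end of the RefSeq gene, which is on the minus strand, and both have a 6-mer of miR-144-3p. The one at chr18:64456431-64456468 had 9, 9 and 1 WT reads and no KO reads, which is at least 5.32-fold lower when the KO group is set to 3 reads. The one at chr18:64456399-64456424 had 8, 12 and 5 WT reads and 2, 4 and 0 KO reads. The intronic peak at chr18:64477977-64478001, the only member peak with a 6-mer of miR-451a, had 5, 7 and 2 WT reads and 1, 1 and 0 KO reads. In all 3 peaks each KO library lay below each WT library, at read counts near the floor. This order held for 10 of the 47 Fech peaks (21.3%) and for 12.3% of all peaks with a gene.

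**Figure D3:**
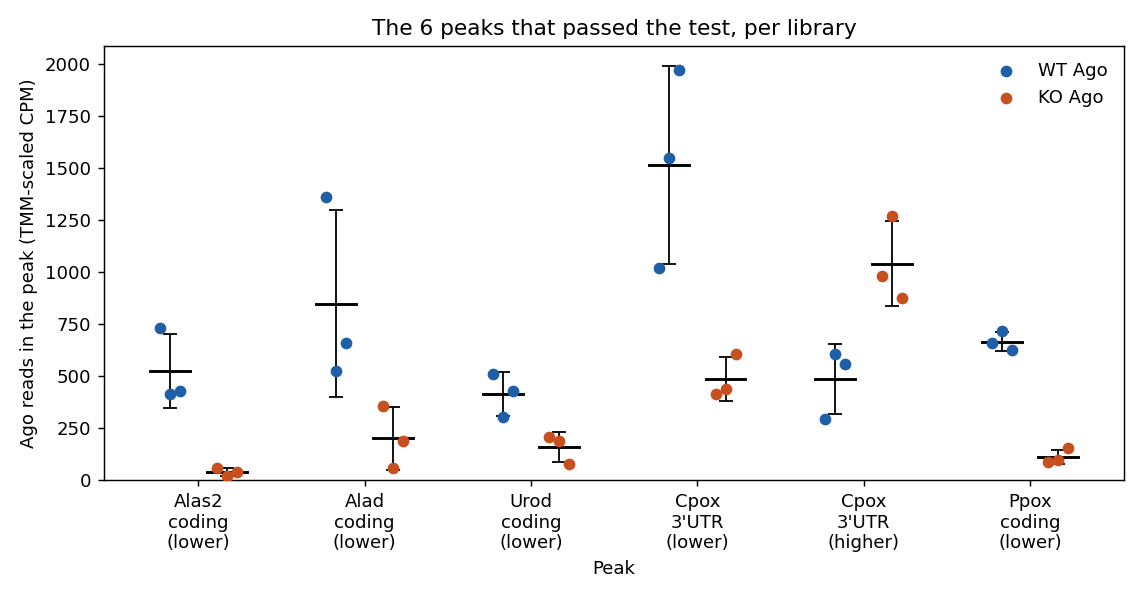
CPM of the 6 peaks that passed the edgeR test, with each library as a point, blue for WT Ago and orange for KO Ago, and bars for the mean and SD of 3 libraries. The 6 peaks were chosen by a test on these same libraries, so the lack of overlap in each is no separate result. The second Cpox 3′UTR peak is the one with KO (1042 ± 205) above WT (486 ± 169).

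Over all 189 peaks, tested or not, 45 (23.8%) had every KO Ago library below every WT Ago library, against 12.3% of all peaks with a gene, and 9 (4.76%) had the reverse, against 5.17%. The member peaks were deeper, with a median of 30 Ago reads against 10. Among peaks with at least 15 Ago reads the order with KO below held for 39 member peaks (27.1%) and for 17.1% of all peaks with a gene. Of these 39, Alad held 11 (of its 16 such peaks) and Ppox 6 (of 11). In the other genes the share ran from 14.3% in Uros to 23.5% in Urod. Peaks of the same mRNA are not independent of each other. Without the filter on reads the median log2 change was -0.55 for the members and -0.17 for all peaks with a gene. The fit without the filter called 13 member peaks lower and none higher, where 2.54% of all peaks were called lower and 0.0329% higher. By gene the 13 were 4 in Ppox, 4 in Alad, 2 in Urod and 1 each in Alas2, Cpox and Fech. Of these, 12 carried a seed code of the locus, and the one without is the Alad peak at chr4:62511563-62511603. Most lower peaks of other genes carried a code too: in the test with the filter, 352 of all lower peaks had a code and 76 had none.

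To see whether the change sat with the seed codes, the peaks of each gene were summed in 2 parts, with and without a code of the locus, and tested over 5298 such sums. The edgeR test called 8.93% of the sums lower in KO and 1.49% higher. Of the 14 member sums, 4 were lower and none was higher. The coded part of Ppox had 574, 475 and 484 CPM in WT and 152, 113 and 132 in KO (log2 change -1.97 ± 0.24 SE, edgeR adjusted p = 0.000165). Its uncoded part had 142, 125 and 72.6 CPM in WT and 152, 63.0 and 110.1 in KO, which overlap (log2 change -0.21 ± 0.36 SE, edgeR adjusted p = 0.751). The difference between the parts of Ppox was -1.76 on the log2 scale (diffSpliceDGE adjusted p = 0.0130), a test in which 9.05% of 1813 genes were called. The result depends on counting single mismatches as codes. With only a 6-mer or longer counted, no Ppox peak has a code and the whole gene, then uncoded, was lower (log2 change -1.46, edgeR adjusted p = 0.000990).

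In Alad both parts were lower, the coded part by 1.17 on the log2 scale (SE 0.33, edgeR adjusted p = 0.0330) and the uncoded part by 1.01 (SE 0.25, edgeR adjusted p = 0.0160). The uncoded part had 272, 297 and 290.4 CPM in WT and 185, 126 and 121 in KO, without overlap. The difference between the parts was -0.17 (diffSpliceDGE adjusted p = 0.850). The coded part lost its call without WT Ago library 1, KO Ago library 12 or KO Ago library 13 (edgeR adjusted p = 0.161, 0.141 and 0.0630), and the uncoded part under DESeq2 and without either of the same KO libraries (adjusted p = 0.0922, 0.0923 and 0.0772). In Urod the coded part fell from 451 ± 158 to 245 ± 23.7 CPM (log2 change -0.88 ± 0.26 SE, edgeR adjusted p = 0.0452) and the uncoded part had 330 ± 103 and 373 ± 47.2 CPM (log2 change 0.15 ± 0.24 SE). This call was lost in 11 of 13 alternatives, and the difference between the parts did not pass (-1.03, diffSpliceDGE adjusted p = 0.0749). In Cpox the coded part had a log2 change of -0.11 ± 0.19 SE and the uncoded part 0.38 ± 0.17 SE, neither of which passed (edgeR adjusted p = 0.757 and 0.185). With only a 6-mer or longer counted, the coded part of Cpox was lower (log2 change -1.27, edgeR adjusted p = 0.0127). Both parts of Alas2, Uros and Fech lay between -0.30 and 0.28 and none passed.

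**Figure D4:**
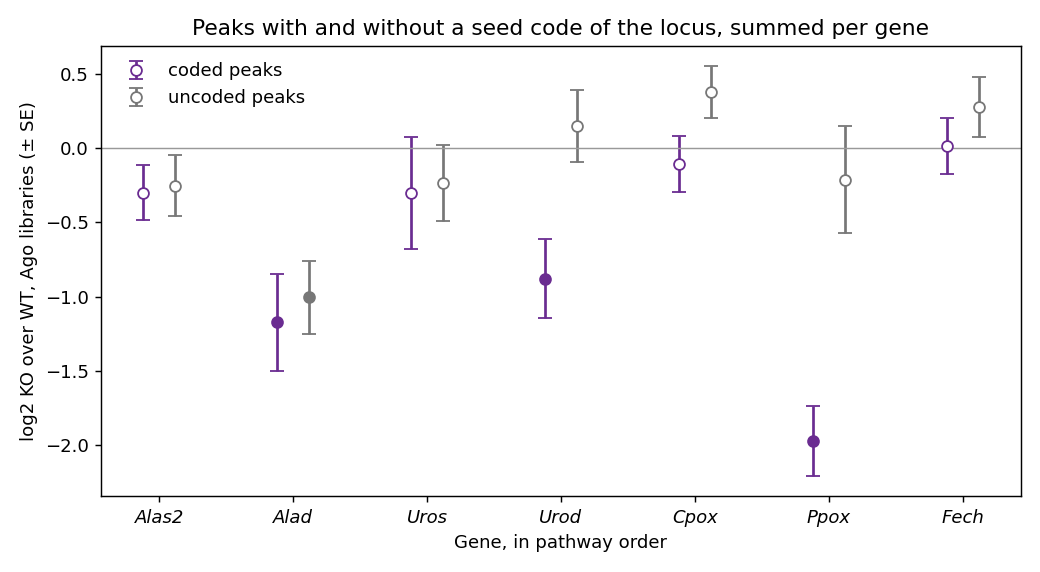
The log2 change of KO over WT Ago reads (± SE of the edgeR fit, 3 libraries per group) for the peaks of each gene with a seed code of the locus (purple) and without (grey); filled points passed the test. Ppox is split (-1.97 with, -0.21 without), whereas both parts of Alad were lower (-1.17 and -1.01).

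Where along the mRNA the reads lay was described by the share of a gene's Ago reads in each region. Coding peaks took 88.0% ± 3.78 (SD, n = 3) of Alas2 reads in WT, 97.2% ± 1.34 of Ppox reads and 71.9% ± 1.32 of Alad reads. The 3′UTR took 50.6% ± 9.81 of Cpox, 48.7% ± 4.49 of Fech and 48.0% ± 9.14 of Uros reads in WT, while Ppox had no 3′UTR peak. In Fech the WT Ago libraries 1, 9 and 10 had 3′UTR shares of 48.7%, 53.2% and 44.2%. The KO Ago libraries 3, 12 and 13 had shares of 58.1%, 68.2% and 56.6%, all above WT. The exact two-sided permutation test gave p = 0.1, the smallest that 3 against 3 libraries allow, and 0.3 after adjustment over the 6 genes with 3′UTR reads. With the peaks beyond the 3′ end counted as 3′UTR, a grouping chosen after seeing the data, the WT libraries had 55.0, 57.4 and 47.7% and the KO libraries 59.0, 69.3 and 56.6%, which overlap. In Alas2 the shares were 7.12%, 13.8% and 11.8% in WT and 13.1%, 19.0% and 25.7% in KO, which overlap (exact permutation p = 0.2). Over all genes the 3′UTR share was 35.7% ± 4.34 in WT and 37.8% ± 3.73 in KO Ago libraries. WT Ago library 1 had the lowest and KO Ago library 12 the highest 3′UTR share over all genes, so the libraries differ in this measure within a genotype.

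**Figure D5:**
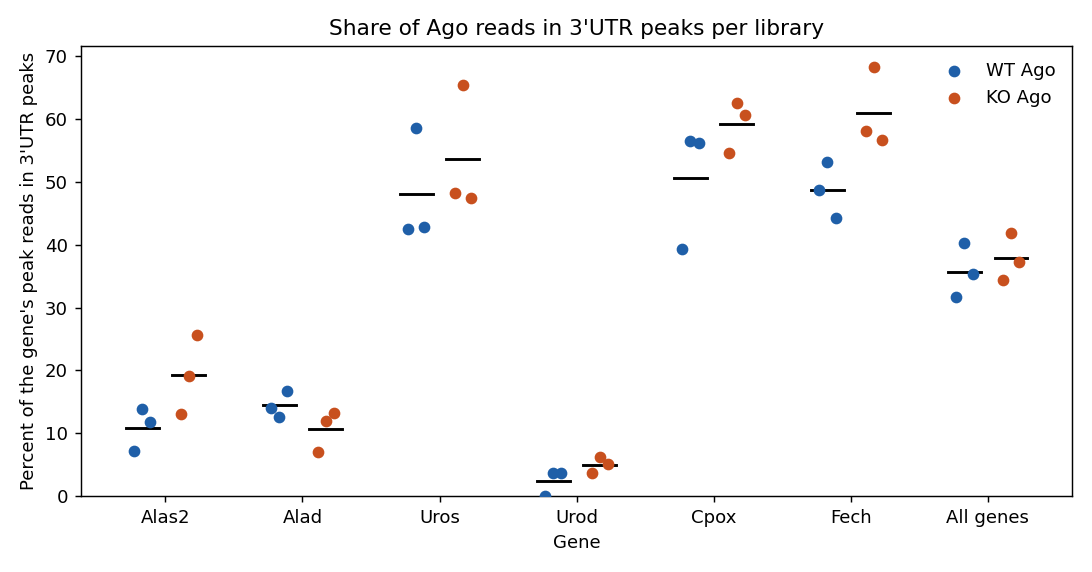
Percent of the peak reads of a gene that fall in 3′UTR peaks, for each WT Ago (blue) and KO Ago (orange) library, with lines at the means of 3 libraries. Fech shows no overlap by the authors' classes (48.7% ± 4.49 in WT, 61.0% ± 6.31 in KO) but overlaps once peaks beyond the 3′ end are counted as 3′UTR, and over all genes the groups overlap.

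The IgG libraries give the background of the assay. Summed per gene, none of the 7 enzymes was called in Ago against IgG, neither in WT, where 13% of 2603 tested genes were lower in Ago and 2% higher, nor in KO, where 10.4% of 1988 were lower and 2.16% higher. Cpox had 2409, 2550.4 and 2656 CPM in WT Ago and 4573, 3251 and 4901 in WT IgG libraries 2, 6 and 11, without overlap (log2 change -0.74 ± 0.35 SE, edgeR adjusted p = 0.163), and DESeq2 called it lower in Ago (log2 change -0.62, adjusted p = 0.0250). Alad had 867 ± 198 CPM in WT Ago and 416 ± 271 in WT IgG (log2 change 0.95 ± 0.40 SE, edgeR adjusted p = 0.113), and passed on library sizes alone, without the read filter and without WT IgG library 2. Urod passed on library sizes alone (edgeR adjusted p = 0.0499) and without the filter (0.0144), and Ppox went from a log2 change of 0.58 to 2.14 without WT IgG library 2 (edgeR adjusted p = 0.0157). In KO the Alad levels were 463 ± 166 in Ago and 698 ± 275 in IgG libraries (log2 change -0.54 ± 0.43 SE, edgeR adjusted p = 0.482). The IgG values rest on few reads, 2 to 12 per library for Alad and 1 to 13 for Ppox.

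Per peak, 13 member peaks could be tested in WT. A peak with hardly any IgG reads could pass the read filter through its Ago reads, so the number called is given as a description. Of the 13, 11 were higher in Ago than in IgG and none was lower, where 35.9% of 894 tested peaks were higher and 37.9% lower. Without WT IgG library 11, 6 of the 11 lost their call, namely 4 of Cpox and 2 of Alas2 (edgeR adjusted p = 0.0536 to 0.157), and without the filter 3 did. The Ppox coding peak at chr1:171277123-171277199 had a log2 difference of 4.46 ± 0.70 SE (edgeR adjusted p = 0.000289). The falling Cpox 3′UTR peak had 3.93 ± 0.66 SE (edgeR adjusted p = 0.000357), and the Fech 3′UTR peak of most reads 2.91 ± 0.71 SE (edgeR adjusted p = 0.00269). The peaks that did not pass were both in the Cpox 3′UTR, namely the rising one at chr16:58680177-58680222 (log2 difference 0.99 ± 0.60 SE, edgeR adjusted p = 0.149) and the one at chr16:58679102-58679128 (1.22 ± 0.75 SE, edgeR adjusted p = 0.154).

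Whether the knockout changed the IgG reads themselves could be tested for Alas2, Cpox and Fech, and none of the 251 tested genes passed; at an unadjusted p under 0.05 edgeR had 1 lower and 1 higher gene, and DESeq2 likewise called none after adjustment. The interaction of genotype and antibody called none of 2654 genes, and DESeq2 called none; before adjustment edgeR had 66 lower and 55 higher genes. The lowest value among the 7 enzymes was that of Alad, -1.57 ± 0.60 SE on the log2 scale (edgeR unadjusted p = 0.0129, adjusted p = 0.911). Ppox had -1.19 ± 0.70 SE (unadjusted p = 0.0974). The fall of Alad and Ppox in Ago libraries was therefore not shown to differ from the change in IgG libraries.

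The authors' filter kept 4 of the 189 member peaks (2.12%) for their differential test, against 6.38% of all peaks with a gene. Of the 189, 90 met both their height and their IgG criterion, but only 4 (2.12%) exceeded 5 in density over background, against 29.1% of all peaks with a gene. That score divides the average coverage per base of a peak by the average coverage of its gene. The Alas2 peak at chrX:150557186-150557208 had a density of 1.89 and the Ppox peak at chr1:171277123-171277199 one of 3.40, and neither is in the deposited table of differential peaks.

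Cpox had the most Ago reads of the 7 genes, a count not scaled for length. Over the 12 libraries the log2 CPM of Papola, Mob4, Akt1s1, Mlxip and Laptm4a was most like that of Cpox among 3333 genes, with Pearson r from 0.885 to 0.907. These correlations span Ago and IgG libraries of unequal depth and are given as a description. Fech had r = 0.683, Uros 0.617, Ppox 0.300, Urod 0.271, Alas2 0.255 and Alad 0.0275 with Cpox.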

How the data were processed

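Ago HITS-CLIP reads in peaks were analysed for 12 libraries. The members and gene lists were chosen with earlier results of these data known. The submitters' processing notes name mm10 as the build and list STAR, cutadapt, limma and bedtools without versions or roles. The deposited counts are unnormalized and take each read with 16 or more bases inside a peak, and the deposited coordinates are mm10. The authors' seed codes and their density over background are scores, and the IgG ratio is the authors' ratio of summed IgG to summed Ago peak height. The authors' height criterion used a signal, namely the lowest height in each genotype, whichever was greater. The authors' deposited differential table gives log2 fold changes, taken as log2 from the values since the base is not stated, with p-values and false discovery rates.

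Counts were tested with edgeR 4.0.16 (quasi-likelihood, TMM, filterByExpr with minimum count 10 and total 15) in R 4.3.3, with Benjamini-Hochberg adjustment over all features tested at 0.05. The 6 libraries of a comparison entered its fit, and all 12 the interaction. CPM values come from the scaling of that fit, so levels of different comparisons are not on one scale. Standard errors were derived from the F statistic. Alternatives were library size alone, all peak reads as library size, no filter, DESeq2 1.42.0, limma-voom (limma 3.58.1), other sets of summed peaks and each library left out. The tests within a gene (diffSpliceDGE) were added after seeing the data. For a peak, the log2 difference is its change against the joint change of all tested peaks of its gene, itself included. The fits per gene, per peak and within genes were tested on simulated data. The rule for named peaks took every tested peak, every peak with a 6-mer or longer and, for genes with under 2 tested peaks, up to 3 of most reads. Most tested Cpox peaks are nevertheless not given, and the Alas2 ones are given partly by range. Other named peaks were chosen after their values were seen. No genome was used, so no peak sequence is printed. No library pair agreed within sampling noise (chi-square over its degrees of freedom 1.66 to 5.07). Gene positions are from RefSeq, GRCm38.p6.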

Additional observations from a re-analysis of the deposited data

How the results depend on the processing

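No paired analysis was possible because the library numbers in the titles (1, 9 and 10; 3, 12 and 13; 2, 6 and 11; 4, 8 and 14) are not shared between groups. Of the member values recomputed under an alternative, 983 kept their side of the threshold, 21 gained a call, 48 lost one and no called value changed sign. Among the uncalled values, 29 per peak, 1 per gene and 9 of the sums by seed code changed sign in KO against WT Ago libraries.

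The 5 member peaks lower in KO became 13 without the read filter and ran from 5 to 13 with a library left out. Relative to the joint change of the tested peaks of their gene, 3 were lower. The 1 higher peak became 2 on library sizes alone and on all peak reads, 0 without the filter and 0 by DESeq2, and 0 to 2 with a library left out. The 2 genes lower in KO became 1 to 2 with a library left out. In sums over the authors' filtered peaks, where 3 genes were tested, 1 was lower and 1 higher, the latter Fech. The 4 lower sums by seed code became 2 by DESeq2, 1 to 4 with a library left out, and 1 as a difference between the parts. In Ago against IgG in WT, 2 genes were higher on library sizes alone and 2 without the filter, 0 to 2 with a library left out, and 1 was lower by DESeq2. The 11 peaks above IgG became 40 without the filter and 17 to 22 with an IgG library left out, where more peaks are tested, although 6 of the 11 lost their call without WT IgG library 11 and 3 without the filter; with a WT Ago library left out no member peak could be tested. The causes were not tested, except that the filter and the libraries left out change which features are tested.

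Over all features, lower peaks numbered 2704 without the filter against 428, and higher peaks 7 by DESeq2 against 34. Lower genes numbered 117 by DESeq2 and 151 on all peak reads against 235. Lower sums by seed code numbered 231 by DESeq2 against 473. Genes above IgG in WT numbered 160 on library sizes alone, 491 without the filter and 31 by DESeq2 against 52. Library sizes alone moved the median log2 change of all peaks from 0.09 to 0.25. The IgG libraries, with at most 42916 reads, limit every comparison with them.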
